A study of Salmo salar with 31 samples.

Results

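The set described here holds the features of the salmon skin array that stood away from freshwater smolts in net-pen fish 1 month post seawater transfer, and in no other post-smolt group. A feature is 1 non-control spot with its own probe ID. The authors' deposited intensities, in arbitrary units, were raised to 16 where lower or blank and put on the log2 scale. The median over the fish of a group was taken, and d is that median in a post-smolt group minus that in smolts. A feature belonged to the set if its highest group median was at least 6 (an intensity of 64), if d in net-pen 1M was 0.8 or more in size (a 1.74-fold difference) and if d was under 0.4 in size (1.32-fold) in each of the other 3 post-smolt groups. Of 14841 features 32 met this, 3 higher and 29 lower in net-pen 1M than in smolts. The features were chosen by these measured differences, so every difference of net-pen 1M from another group given below is a description and carries no test.

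Skin from the flank of 31 Atlantic salmon (Salmo salar) was labelled with Cy3 and hybridized 1 fish per array. Post-smolts came from an open sea cage 1 and 4 months after transfer (net-pen 1M, net-pen 4M) or from a floating semi-closed raceway at the same times (S-CCS 1M, S-CCS 4M), and the smolts were in freshwater. Each post-smolt group had 6 fish and the smolts were 7. All came from 1 smolt production, were fed commercial diets, and the labels name no other treatment. Each system was a single enclosure at a site of its own, so system, enclosure and site cannot be told apart, and the replicates are individual fish.

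Salmon skin is a living barrier: an epidermis with mucous cells lies over a scaled dermis, and no keratinised dead layer separates it from the water. Smoltification prepares the fish in freshwater for the sea, where the skin meets higher salinity, other microbes and parasites, and skin is a tissue of salt and water balance, mucus secretion and immune defence. Through an open cage the water of the site flows freely, whereas the semi-closed raceway pumps its water from depth. None of the probe IDs was found among the 65341 genes of the reference table used here. No feature was therefore given a gene, a role or a sequence, and neither gene lists nor markers of skin were read. The study itself names genes measured on this array, but its annotation of the probes was not at hand. Of each direction 2 features are named by probe ID and the rest are described without one.

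Per array, 84.3% to 97.1% of features stood well above background, no spot was saturated, and the number of arrays limits the precision. The 6 net-pen 1M arrays filled slides 1 to 3 by pairs and shared them with no other group, so slide and group cannot be told apart for these fish. Smolts lay on 4 slides shared with other groups. Over the 9008 features with a highest group median of at least 6, the median d was -0.09 in net-pen 1M and -0.02 in net-pen 4M. For S-CCS it was 0.05 at 1M and -0.12 at 4M. By the mark of the scanner software, all 32 features were well above background on all 31 arrays. In 1 spot, of S-CCS 1M fish 11, the local background of 556 exceeded the median signal of 228, and the deposited value was blank.

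Few of the features that stood apart in net-pen 1M did so there alone. Past 0.8 in net-pen 1M were 428 features on the higher side, of which the 3 make up 0.701%, and 484 on the lower side, of which the 29 make up 5.99%. Of the 428 higher features, 268 were past 0.4 in all of the other 3 groups, 127 in 2 and 30 in 1. Of the 484 lower features, 201 were past 0.4 in all 3, 194 in 2 and 60 in 1. The same rule applied to the other groups gave 48 higher and 8 lower features for net-pen 4M, 8 and 12 for S-CCS 1M, and 16 and 103 for S-CCS 4M. With normexp at an offset of 50, the 29 lower against 3 higher features of net-pen 1M turned to 3 against 4. The 29 against 3 became 25 against 28 without smolt fish 2 and 24 against 29 without smolt fish 7. All of these counts share the same smolts.

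Among the 3 higher features, d in net-pen 1M was 0.84 to 1.13, which is 1.78 to 2.19-fold. Ssa#S47729802 had the highest d, 1.13. Its intensity was 182 to 476 in net-pen 1M with a median of 437, 103 to 351 in net-pen 4M (249), 104 to 298 in S-CCS 1M (216), 146 to 294 in S-CCS 4M (215) and 24 to 228 in smolts (199). The groups overlapped: net-pen 1M fish 12 at 182 and fish 6 at 224 lay within the smolts, while the other 4 net-pen 1M fish, at 419 to 476, lay above all fish of the other 4 groups. The smolts were spread widely, since smolt fish 1 and 6 had 24 and 56.

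Ssa#CB504784 had 73 to 139 in net-pen 1M with a median of 93.5, 27 to 168 in net-pen 4M (46), 35 to 165 in S-CCS 1M (57.5), 24 to 90 in S-CCS 4M (52.5) and 27 to 67 in smolts (49). Its d in net-pen 1M was 0.91. It was the 1 higher feature of the 3 whose net-pen 1M fish did not overlap the smolts, where 1.48% of the 9008 features did not overlap in that direction. The highest values of all were net-pen 4M fish 2 at 168 and S-CCS 1M fish 1 at 165, so single fish of other groups reached the net-pen 1M level. The remaining higher feature had 54 to 120 in net-pen 1M (91), 44 to 85 in net-pen 4M (51.5), 53 to 93 in S-CCS 1M (66), 40 to 59 in S-CCS 4M (47) and 35 to 77 in smolts (51), with a d of 0.84 in net-pen 1M. Its S-CCS 4M fish were lower than all but 1 of the net-pen 1M fish.

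**Figure D1:**
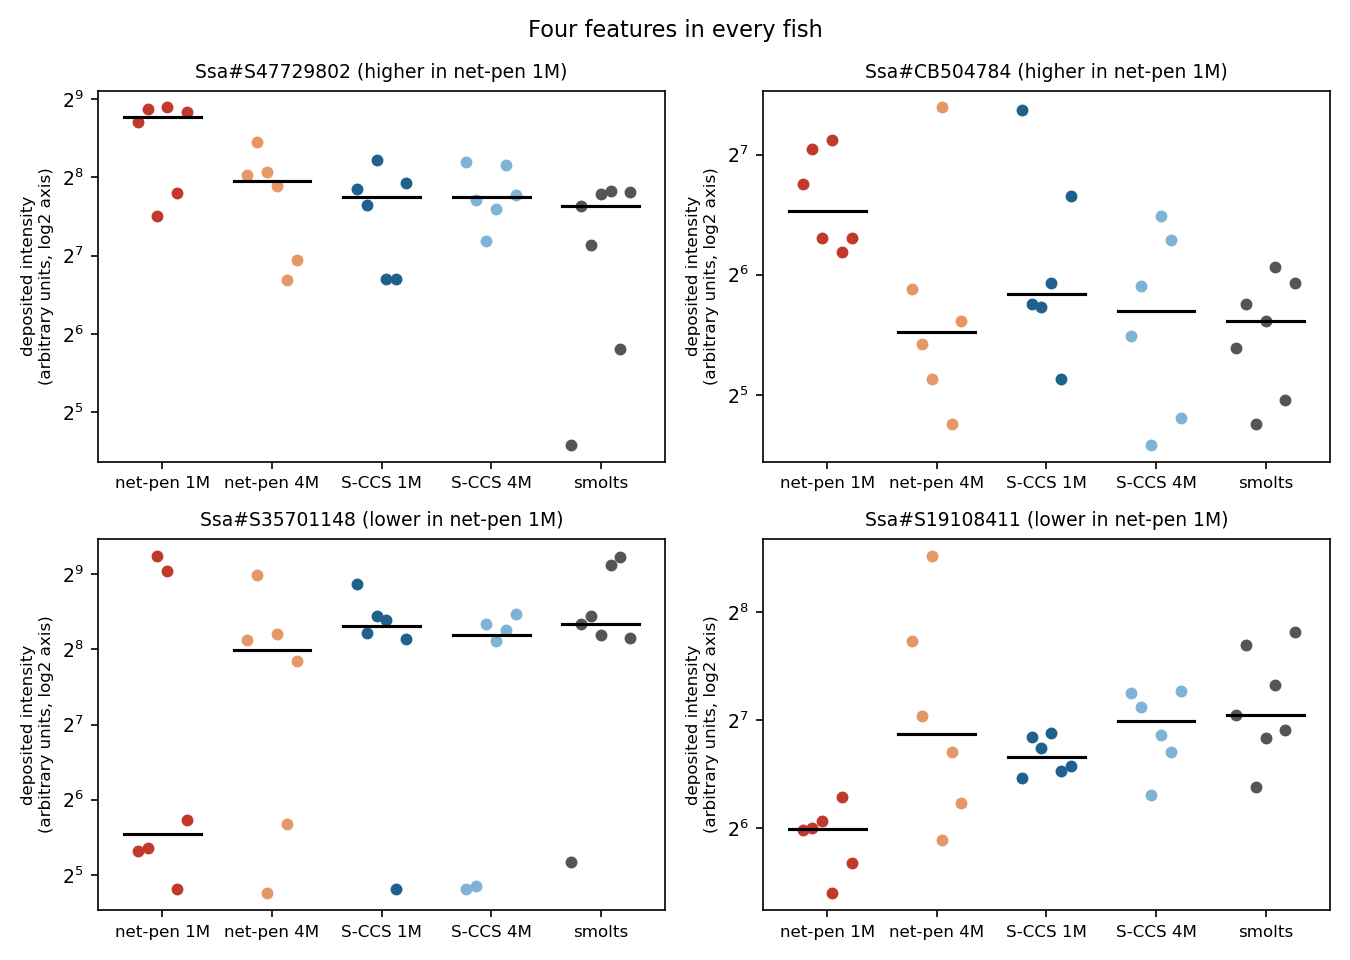
Deposited intensity (arbitrary units, log2 axis) of 2 higher and 2 lower features in every fish, by group, with a bar at the group median. Net-pen 1M fish of Ssa#S47729802 lie at 182 to 476 with 2 fish in the smolt range, those of Ssa#S19108411 at 42 to 78 below all smolts, and Ssa#S35701148 falls into a low and a high level in each group.

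The 2 net-pen 1M fish that were low for Ssa#S47729802 were also the lowest for the remaining higher feature. There, fish 12 had 54 and fish 6 had 63, against 90 to 120 in the others. For Ssa#CB504784 fish 12 and 6 had 79 and 73, above all smolts, and fish 7 also had 79. Features well above background made up 84.3% of the array of fish 12 and 89.4% of that of fish 6. In the other 4 net-pen 1M fish they made up 91.0% to 94.3%, and whether this bears on the values was not tested. As deviation from the smolt median, the median over the 3 features was 0.08 in fish 12 and 0.30 in fish 6, against 0.85 to 1.26 in the other 4 net-pen 1M fish. The group median therefore rests on those 4 fish for Ssa#S47729802 and the remaining feature, each with 4 fish past 0.8. For Ssa#CB504784 it rests on 3, fish 1, 2 and 11, which alone were past 0.8. The number of higher features also turned on single fish of other groups: without smolt fish 2, 3 or 7 the rule gave 28, 29 and 29 higher features in place of 3, and only 1 of the 3 was among them each time.

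Among the 29 lower features, d in net-pen 1M was -2.80 to -0.81 with a median of -0.86, which is 1.81-fold. Most lay close to the limit, with 20 between 0.8 and 0.9 in size, 6 between 0.9 and 1.0 and 3 above. They spanned dim and bright spots, with median intensities of 36.5 to 1639 in net-pen 1M and 69 to 2965 in smolts. In net-pen 4M their d had a median of -0.14 (-0.35 to 0.32) and was below 0 for 21 features. The median was -0.20 in S-CCS 1M (-0.40 to 0.23), with 22 below 0, and -0.21 in S-CCS 4M (-0.40 to 0.25), with 24 below 0. In all 3 groups 13 features were below 0. All 4 differences of a feature share its smolt median.

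**Figure D2:**
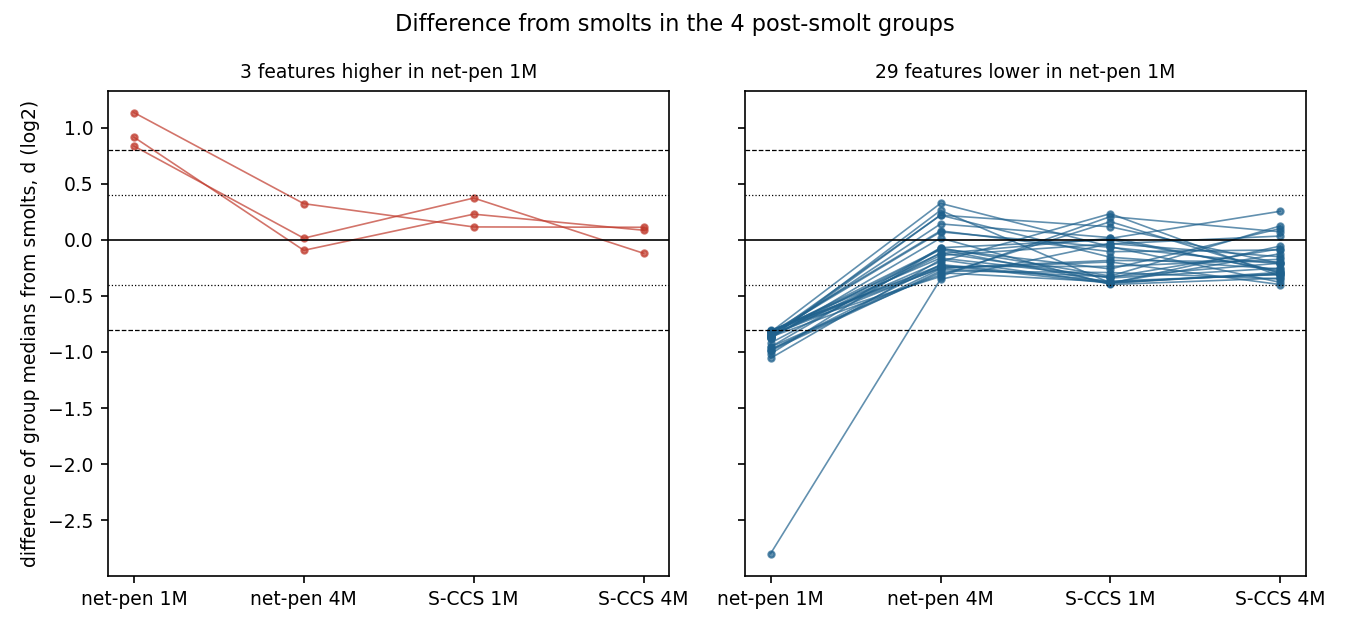
Difference of group medians from smolts, d (log2), in each of the 4 post-smolt groups, 1 line per feature, with dashed lines at 0.8 and dotted lines at 0.4. The 3 higher features lie at 0.84 to 1.13 and the 29 lower ones at -2.80 to -0.81 in net-pen 1M, and 13 of the lower ones are below 0 in all of the other 3 groups.

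The feature with the lowest d, Ssa#S35701148, stands apart from the other 28 and was singled out after its values were seen. Over all 31 fish it took a low or a high level, 27 to 53 in 10 fish and 230 to 607 in 21 fish, with a 4.34-fold gap and no fish between. The low level was found in 4 of 6 net-pen 1M, 2 of 6 net-pen 4M, 1 of 6 S-CCS 1M, 2 of 6 S-CCS 4M and 1 of 7 smolt fish. Its d of -2.80 is therefore a difference in how many fish were at the low level, and its high fish had medians of 566.5 in net-pen 1M and 336 in smolts. No other of the 9008 features separated the same fish, in either direction.

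Ssa#S19108411 had the next lowest d, -1.06. Its intensity was 42 to 78 in net-pen 1M with a median of 63.5, 59 to 368 in net-pen 4M (117.5), 88 to 118 in S-CCS 1M (101), 79 to 154 in S-CCS 4M (127.5) and 83 to 226 in smolts (132). All net-pen 1M fish lay below all smolts and all S-CCS fish, and only net-pen 4M overlapped them, with fish 2 at 59 and fish 7 at 75.

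Several less extreme features were more even among fish. In 1 of them, net-pen 1M lay at 94 to 122 with a median of 115.5, net-pen 4M at 123 to 237 (183), S-CCS 1M at 160 to 378 (173), S-CCS 4M at 143 to 218 (181) and smolts at 186 to 258 (224). This was the 1 lower feature whose net-pen 1M fish lay below every fish of all other groups, by 122 against 123 at the closest, where 0.0555% of the 9008 features did so. Another had 406 to 483 in net-pen 1M (476.5), 471 to 991 in net-pen 4M (805.5), 577 to 988 in S-CCS 1M (727), 565 to 999 in S-CCS 4M (757.5) and 708 to 1244 in smolts (939). The last of these had 181 to 209 in net-pen 1M (192), 179 to 412 in net-pen 4M (316.5), 245 to 428 in S-CCS 1M (302), 239 to 31105 in S-CCS 4M (328) and 297 to 470 in smolts (379). The value of 31105 came from S-CCS 4M fish 1, in a spot that the scanner software marked as non-uniform or an outlier, and the next highest S-CCS 4M fish had 405. These were the 3 lower features with all 6 net-pen 1M fish past 0.8.

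In the brightest lower feature the fish of net-pen 1M disagreed. It had 1435 to 3445 in net-pen 1M with a median of 1639, 2408 to 3941 in net-pen 4M (2792), 1904 to 2693 in S-CCS 1M (2274.5), 1862 to 4159 in S-CCS 4M (2733) and 1979 to 3633 in smolts (2965). Fish 6 and 12 of net-pen 1M, at 3025 and 3445, were above the smolt median and the other 4 fish, at 1435 to 1764, below every smolt. A dimmer feature repeated this with 1 fish: net-pen 1M fish 12 had 200 and the other 5 had 39 to 67, against 71 to 117 in smolts. Over the 29 features, 13 had 3 net-pen 1M fish past 0.8, 10 had 4, 3 had 5 and 3 had 6, and in 21 all 6 fish lay below the smolt median.

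Net-pen 1M fish did not overlap the smolts in 11 of the 29 lower features, where 8.81% of the 9008 features did not overlap in that direction. They did not overlap S-CCS 1M in 7 features (3.26% of all), with 1 blank S-CCS 1M value of a further feature counted as 16, and net-pen 4M in 4 (3.96% of all). For the higher features both of these numbers were 0 of 3 (0.599% and 0.81% of all). The rule used these contrasts, so nothing is read from the counts.

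Taken per fish, the median deviation from smolts over the 29 lower features was -1.0 to -0.85 in net-pen 1M and -0.62 to 0.32 in net-pen 4M. It was -0.58 to 0.11 in S-CCS fish at 1M, -0.47 to 0.09 in those at 4M and -0.15 to 0.27 in smolts. It was -0.93 and -0.85 in the fish of slide 1, -1.0 and -0.85 on slide 2, and -0.88 and -0.86 on slide 3. The rule chose the features by the median of these 6 fish, so low values in them follow largely from the choice. Slides 1 to 3 held no other group, so nothing about slide is read from these values. Fish 12 had 6 of the 29 features above the smolt median and fish 6 had 3, whereas the other 4 had 0 or 1. Over the 9008 features the median deviation of a net-pen 1M fish was between -0.25, in fish 12, and 0.03, in fish 11.

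**Figure D3:**
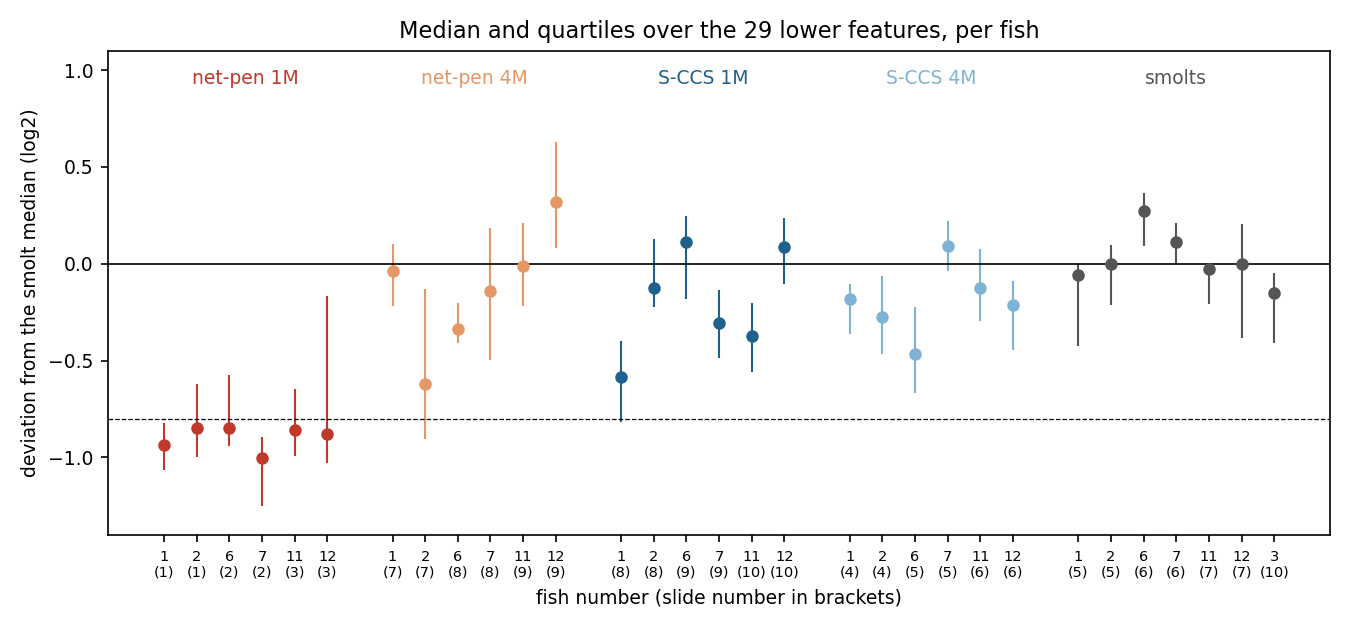
Median (point) and quartiles (line) over the 29 lower features of the deviation from the smolt median (log2), for each fish, with the slide number in brackets and a dashed line at -0.8. Points of net-pen 1M fish lie at -1.0 to -0.85 on slides 1 to 3, and the nearest other fish, in net-pen 4M, lies at -0.62.

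To see the features in a fish that had no part in choosing them, the set was chosen anew without 1 fish at a time and read in the fish left out. For the lower side, the sets without 1 net-pen 1M fish had 20 to 33 features. Their median deviation in the fish left out was -0.99 in fish 7, -0.82 in fish 1, -0.69 in fish 11, -0.65 in fish 2, -0.61 in fish 6 and -0.37 in fish 12, with a median of -0.67. In all 6 fish this median was thus below the smolts, by less than in the chosen set. Only the fish left out was new, since the deviation is taken from the smolt median that the rule used. Past 0.8 in the fish left out were 30.0% (fish 12) to 75% (fish 7) of the features. Fish 12 also had a median deviation of -0.25 over all 9008 features with a highest group median of at least 6. Fish left out of the other groups overlapped the net-pen 1M fish: the values were -0.73 to 0.32 in net-pen 4M and, for S-CCS, -0.58 to 0.14 at 1M and -0.52 to 0.09 at 4M, against -0.24 to 0.30 in smolts. The share of features past 0.8 also overlapped, at up to 44.8% in net-pen 4M (fish 2) and 32.3% in S-CCS 1M (fish 1). It was at most 13.3% in S-CCS 4M and 16.1% in smolts. No test was made of these values. For the higher side, the 6 sets had 6 to 15 features and the net-pen 1M fish left out had -0.03 to 0.55 with a median of 0.22, while smolts left out had -1.32 to 1.44.

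Membership itself turned on single fish. Of the 29 lower features 4 were chosen in all 31 repeats, and of the 3 higher features 0, each being chosen in 24 to 28 of 31. The 4 lower features had median intensities of 39.5, 42.5, 85.5 and 476.5 in net-pen 1M, against 72, 76, 155 and 939 in smolts. Many features lay close to the limits. On the lower side the nearest feature inside had a d of -0.81 and the nearest outside -0.80, with 25 features between 0.7 and 0.8 in size that met the rest of the rule. In the other groups the nearest inside had a d of 0.399 in size and the nearest outside 0.401, with 23 features between 0.4 and 0.5. On the higher side these neighbours were 0.84 and 0.77, and 0.37 and 0.43, with 3 and 5 features. The level limit alone kept out 6 features in each direction.

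The 32 features were also read on the study's own scale, the log2 expression ratio (log2-ER), the log2 of a feature's intensity over its mean on all arrays, taken after scaling of the arrays to 1 mean and followed by lowess. Groups were fitted with limma over 14172 features. In net-pen 1M against smolts the lower features lay at -1.50 to -0.35 log2-ER with a median of -0.69 (SE 0.14 to 0.97), where the median over all features was 0.02. Their medians against smolts were -0.09 for net-pen 4M and, for S-CCS, -0.24 at 1M and -0.11 at 4M. The higher features had 0.63 to 1.63 in net-pen 1M against smolts. The largest SE, 0.97, belonged to Ssa#S35701148, whose log2-ER was -1.50.

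**Figure D4:**
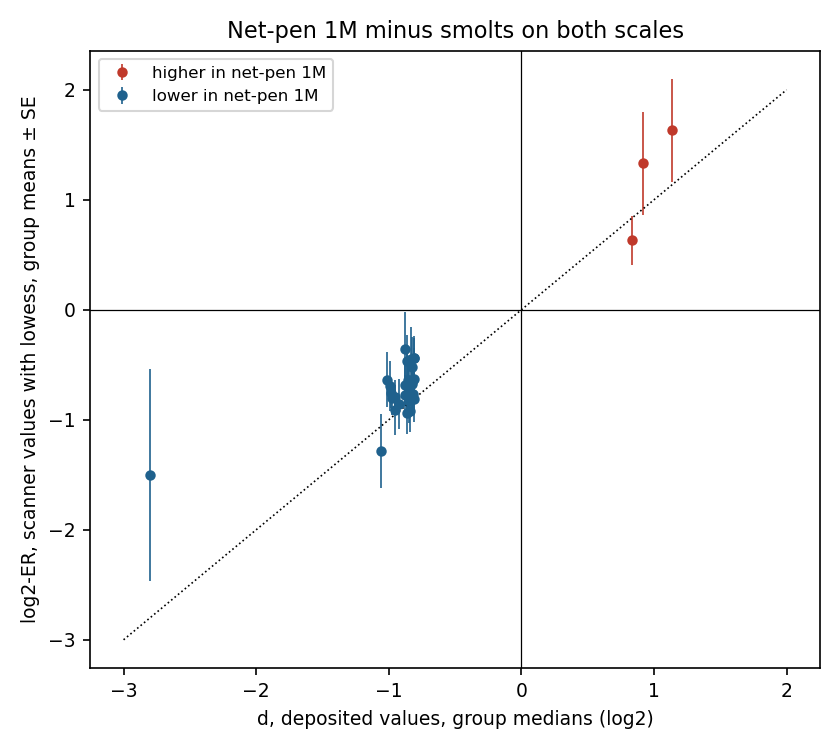
Net-pen 1M minus smolts on both scales: d of the deposited values (x axis, log2, group medians) against log2-ER of the scanner values after lowess (y axis, group means with their SE), with a dotted line where both are equal. All 32 features keep their side of 0, and most of the lower ones lie above the line, with a median of -0.69 on the y axis and -0.86 on the x axis.

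At the study's criteria, an unadjusted p under 0.05 and a log2-ER past 0.8, limma called 8 of the 29 lower and 2 of the 3 higher features in net-pen 1M against smolts, where 3.56% and 4.87% of all features were called. At a Benjamini-Hochberg adjusted p under 0.05 it called 18 lower and 3 higher (10.2% and 8.49% of all). Against S-CCS 1M the criteria called 3 lower and 1 higher (2.38% and 3.7% of all), and against net-pen 4M they called 7 lower and 1 higher (4.92% and 3.27% of all). With the adjusted p these numbers were 7 lower and 0 higher against S-CCS 1M (3.38% and 3.03% of all), and 13 lower and 0 higher against net-pen 4M (5.2% and 2.69% of all). The 0 higher features stand beside 1 at the criteria in each comparison. The adjusted counts over all features turned on single fish against S-CCS 1M, where 429 higher and 479 lower became 124 to 589 and 200 to 747 without single fish. They moved by more than 1.5 times in at least 1 direction without net-pen 1M fish 1, 6, 7, 11 or 12 and without S-CCS 1M fish 6, 7, 11 or 12. Against net-pen 4M, 381 higher became 236 without net-pen 1M fish 1, 229 without net-pen 1M fish 7 and 219 without net-pen 4M fish 7. Against S-CCS 1M the adjusted lower count was 1408 without lowess and 1751 on deposited values. With normexp the adjusted counts against smolts were 1184 higher and 1889 lower, beside 1203 and 1445 in the main fit. They were 585 and 1035 against S-CCS 1M, and 470 and 963 against net-pen 4M (381 and 737 in the main fit). Normexp called fewer features at the criteria. The counts by adjusted p, taken without a limit on log2-ER, showed no like fall, and the cause was not tested. Since the rule used the same contrasts, nothing is read from the features of the set that were called.

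The fit differs from d in signal, in scaling and in taking means over fish. With medians of the lowess-corrected scanner values all 3 higher features stayed under 0.4 in the other groups, and with means of the deposited values 1 of 3 did. Of the 29 lower features, 18 stayed under 0.4 with the former and 21 with the latter. The lower feature with the weakest log2-ER in net-pen 1M (-0.35 with an SE of 0.33) had in net-pen 4M a d of 0.26 but 1.02 as log2-ER against smolts. There, fish 11 and 12 had intensities of 1843 and 3338 and the other 4 had 579 to 637. A median over fish gives such fish less weight than a mean does. Ssa#S47729802, under 0.4 in all other groups by medians, against smolts reached 0.82 as log2-ER for net-pen 4M, and 1.02 for S-CCS 4M.

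For the lower features, spot position and the variation of fish within their groups were also read. On the array they were spread, with rows 1 to 179 (median 97) and columns 2 to 81 (median 42), where all features span rows 1 to 192 and columns 1 to 82 with medians of 96 and 42. After group medians were removed, the 406 pairs of lower features had a median correlation of 0.30 over the 25 fish of the other groups, and 340 pairs (83.7%) were above 0. Over all pairs of the 9008 features the median was 0.10, with 62.4% above 0. Over the 6 net-pen 1M fish the median of the 406 pairs was 0.15, with 231 (56.9%) above 0, where all pairs had a median of 0.10 with 55.4% above 0. The points are fish on shared slides and with shared array scaling, the choice to look was made after the data were seen, and the correlations are a description. They use the same deposited values as the rule, and the pairs of all features were not matched to the lower features in level, spread or group medians. Ssa#S35701148 had the lowest median correlation to the other lower features, -0.15.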

How the data were processed

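Skin RNA of 31 fish was hybridized to single-colour oligonucleotide arrays on 10 slides. The labels give each array's group and fish number. Per array the authors deposited the scanner output, in which processed signal is an intensity after background subtraction. They also deposited a table of values for all arrays. The table was compared with the scanner output at deposited values of at least 200. There, each of its columns equalled the median signal minus local background intensity times 1 constant per array (0.462 to 1.10). The deposited intensity was thus scaled but not lowess corrected in that range. Lower values were not compared, and the median value of an array was 81 to 112. The rule was applied to that table. Of the 992 values of the 32 features 1 was blank, in a spot with a median signal of 228 and a local background of 556.

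For limma, the processed signal was scaled to equal mean, divided by the mean over arrays and corrected by lowess (span 0.3, against mean log2 intensity), leaving out spots marked as non-uniform or outliers (1 of the 992). The study's methods name these steps but neither the signal nor the span. Features well above background in at least 50% of the arrays of a group were kept (14172, with 669 removed). All 5 groups entered 1 fit, with Benjamini-Hochberg adjustment over all features. The study gives criteria for single genes without naming the test. R 4.3.3, limma 3.58.1, Python 3.11.15, numpy 2.4.6, pandas 2.3.3 and matplotlib 3.10.9 were used. The steps were tested on simulated data.

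The set, the lists and the alternatives were chosen with earlier results of these data known. Features were to be named by size of d among those whose net-pen 1M fish did not overlap the smolts. Because no probe ID was matched to a gene here, at most 2 per direction are named, and the gene lists and the markers of cell types could not be used. Of the 4 named, Ssa#S47729802 and Ssa#S35701148 overlap the smolts and were chosen by size of d alone after their values were seen. The alternatives were other floors, limits and normalizations, the mean over fish, fish number or slide as a block, no filter and the omission of single fish. Normexp was used with an added offset of 50 and quantile normalization, and the limits of 0.8 and 0.4 were kept.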

Additional observations from a re-analysis of the deposited data

Results flagged for a closer look

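In 170 groups of values, the 32 features in each of the 5 groups and the medians over them per fish, 13 values, from 10 fish, lay far from the rest of their group by Dixon's criterion on the log2 scale, where chance alone would give about 8.5. In Ssa#S35701148 these were S-CCS 1M fish 6 at 28 and smolt fish 1 at 36, each the only fish of its group at the low level. Among the lower features in net-pen 1M, fish 12 stood out in 3, high at 452 and at 200 and low at 406, and fish 7 in 1, low at 94. In S-CCS 4M, fish 1 had 31105 in the spot marked as non-uniform or an outlier, and fish 2 had 111 in another feature. In net-pen 4M, fish 2 had 79 and fish 7 had 1469, both low, and fish 2 had 85, high, in a feature of the higher side. In S-CCS 1M, fish 1 was low at 138, and fish 11 was at the floor of 16 through the blank value, where the scanner's processed signal was 200.6.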

How the results depend on the processing

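All 32 features kept their sign of d in net-pen 1M under the other floors, the mean over fish and the other normalizations, but the number of features past the rule did not hold. The floors of 8 and 32 left the range and median of their d unchanged. The features were chosen for a large d on the same arrays, so nothing is read from the kept sign. With 3 higher and 29 lower as reported, the rule gave 6 higher with a floor of 32, 1 and 14 with a highest median of at least 8, and 1 and 3 with a d of at least 1.0. With the other groups under 0.3 it gave 1 and 11, and under 0.5 it gave 8 and 52. The mean over fish gave 8 and 18 (0 and 7 of the reported features among them). The scanner signal gave 7 and 13 with lowess (2 and 8 kept), 8 and 14 with 75th percentile scaling (2 and 9 kept) and 2 and 26 without lowess (2 and 18 kept), normexp gave 4 and 3 (1 and 1 kept), and quantile normalization of the deposited values gave 6 and 16 (3 and 10 kept). The lower side thus held 90.6% of the set as reported, 92.9% without lowess, but 65.0% with lowess, 63.6% with 75th percentile scaling, 42.9% with normexp and 72.7% with quantile normalization. Over the 9008 features the median d was -0.09 on deposited values and 0.02 with 75th percentile scaling. For the 29 lower features the median d was -0.79 with lowess (14 past 0.8), -0.57 with normexp (2 past 0.8) and -0.80 after quantile normalization (14 past 0.8).

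Without single fish the rule gave 2 to 29 higher and 20 to 33 lower features. The higher count moved by more than 1.5 times without any of the 6 net-pen 1M fish (6 to 15), without net-pen 4M fish 1, 11 or 12 (5 each), without S-CCS 1M fish 1 (5), 7 or 12 (6 each), and without smolt fish 2 (28), 3, 7 (29 each) or 11 (5). The limma counts at the study's criteria ranged without single fish from 626 to 810 higher and 446 to 573 lower against smolts (690 and 504 with all fish), from 447 to 714 and 302 to 430 against S-CCS 1M (525 and 337), and from 366 to 673 and 622 to 815 against net-pen 4M (464 and 697). With normexp (offset 50) they were 232 and 145, 151 and 34, and 152 and 227 in turn. Deposited values gave 362 and 454, 243 and 282, and 241 and 533. With 75th percentile scaling 315 were higher and 972 lower against net-pen 4M. Without lowess the counts were 536 and 673, 325 and 706, and 266 and 1094 in the same order. The cause was not tested.

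Fish numbers do not pair the fish: over 60 pairs of fish with the same number the deviations correlated at -0.41 to 0.36 with a median of -0.02, and 8 of 31 fish correlated best with their own number. With fish number as a replicate block limma gave 703 higher and 521 lower against smolts, 513 and 335 against S-CCS 1M, and 472 and 697 against net-pen 4M. With slide as a random block, at a consensus correlation within slide of -0.04, no count moved by over 1.5 times. The net-pen 1M arrays shared no slide with another group, so this block cannot tell slide from group in these contrasts.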
